A study of Mus musculus with 12 samples.

Results

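The interaction of CHIP genotype and doxorubicin (DOX) was examined in mouse heart. For each probe set it was the DOX response of hearts labelled Knockout, that is DOX minus no treatment, minus the same response of wild-type (WT) hearts, on the log2 scale. All 12 of the 12 arrays of the series were chosen by their titles, and all 45037 probe sets entered. A value above 0 means that DOX moved the transcript further up, or less far down, in hearts labelled Knockout than in WT hearts.

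Whole hearts of male C57BL/6J mice aged 8 to 10 weeks were hybridised to Affymetrix arrays, with 3 biological replicates in each of 4 groups. WT no treatment and Knockout no treatment received no DOX, and WT DOX and Knockout DOX received DOX once, into the abdomen, at 15 mg/kg, with hearts collected at day 5. DOX is an anthracycline used against cancer that damages heart muscle. The labels call the altered genotype a CHIP knockout, while the study's methods describe a transgene that raises CHIP in the heart alone, WT littermates, a higher dose, older mice and saline-injected controls.

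Stub1, the gene of CHIP, went against the label. Its brighter probe set read 1857, 1831 and 1790 in WT no treatment and 1944, 1950 and 1930 in WT DOX, but 8762, 9817 and 9655 in Knockout no treatment and 5561, 7998 and 8723 in Knockout DOX. Every array labelled Knockout was thus far above every WT array, by 2.34 on the log2 scale without treatment and by 1.89 after DOX. The DOX response of this probe set was 0.09 in WT and -0.36 in hearts labelled Knockout, an interaction of -0.45 ± 0.19 (SE; unadjusted p = 0.0376, adjusted p = 0.564). Without 1 array that interaction ran from -0.58 to -0.26, the latter without Knockout DOX replicate 1. The other Stub1 probe set ranged from 1037 to 1402 over all 12 arrays and had an interaction of -0.04. The groups are therefore called hearts labelled Knockout, and the direction of each interaction follows that label.

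As background, CHIP is a cochaperone of Hsp70 and Hsp90 and also a ubiquitin ligase, so it stands between the folding of damaged proteins and their destruction by the proteasome. DOX poisons topoisomerase II, generates reactive oxygen species and activates p53, and in the heart it leads to loss of muscle mass, with transcripts of atrophy and autophagy genes among those that respond. Heat shock factor switches on chaperone genes through inverted GAA repeats in their promoters, and the coactivator YAP acts with TEAD factors on Ccn1 and Ccn2, which encode secreted matricellular proteins.

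The promoters of 3 genes with some of the lower interactions described below are shown for these motifs, as 300 bases from 250 before to 50 after the start of transcription, on the strand of the gene, from RefSeq on GRCm38.p6. Capitals mark CATTCC or its reverse complement, the TEAD core, in Ccn1 and GAANNTTC, the inverted repeat bound by heat shock factor, in Hspb1 and Dnaja1, searched on both strands with overlaps counted. Ccn1 lies at chr3:145649936-145650235 on the minus strand, Hspb1 at chr5:135887669-135887968 on the plus strand, and Dnaja1 at chr4:40722218-40722517 on the plus strand.
Ccn1: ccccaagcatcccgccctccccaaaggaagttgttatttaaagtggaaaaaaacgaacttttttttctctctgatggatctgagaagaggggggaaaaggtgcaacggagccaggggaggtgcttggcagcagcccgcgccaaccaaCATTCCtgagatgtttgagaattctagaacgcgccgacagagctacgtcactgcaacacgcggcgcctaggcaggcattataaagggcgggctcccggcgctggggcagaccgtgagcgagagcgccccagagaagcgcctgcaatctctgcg
Hspb1: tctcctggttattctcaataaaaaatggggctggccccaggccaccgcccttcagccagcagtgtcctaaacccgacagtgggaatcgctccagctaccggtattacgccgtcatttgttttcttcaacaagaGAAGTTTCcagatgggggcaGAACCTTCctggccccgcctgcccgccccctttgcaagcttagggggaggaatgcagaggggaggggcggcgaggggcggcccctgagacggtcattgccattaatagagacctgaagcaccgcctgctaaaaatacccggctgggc
Dnaja1: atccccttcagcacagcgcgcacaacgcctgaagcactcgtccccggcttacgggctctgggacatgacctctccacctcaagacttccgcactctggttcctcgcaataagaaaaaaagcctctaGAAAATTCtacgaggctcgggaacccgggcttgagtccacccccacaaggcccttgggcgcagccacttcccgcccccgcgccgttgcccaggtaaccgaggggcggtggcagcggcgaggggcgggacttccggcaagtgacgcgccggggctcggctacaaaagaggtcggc
The TEAD core stood in 14.7% of the 32851 promoters of this length and the inverted GAA repeat in 7.86%. Of the 4 genes of the CCN and YAP-TEAD list with a lower interaction at an unadjusted p under 0.05, 3 had a promoter entry and 1, Ccn1, held the core. Of the 5 such chaperone genes, 4 had an entry and 2, Hspb1 and Dnaja1, held the repeat. A gene counted if any of its entries matched, whereas the percentages are shares of single promoters. Dnaja1 had 3 entries, and the one with the most matches is shown. These matches are letters in a window and are no evidence of binding.

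No interaction passed the test. At an adjusted p under 0.05 in the limma fit 0 of 45037 probe sets were called (0%), and the lowest adjusted p was 0.0765, shared by 6 probe sets. Those 6 were Cdca4, Atg7, Pfn2 and Gm19277 above 0 and both leading probe sets of Ccn1 below 0. Of the probe sets 3914 had an unadjusted p under 0.05 (8.69%), 1926 above 0 (4.28%) and 1988 below 0 (4.41%). With the brightest probe set of each of 18193 genes, 1792 genes did (9.85%). Brighter probe sets leaned below 0. Among the 12942 with a mean of at least 100, 627 had such a p above 0 and 1198 below. A filter at a mean of 32 left 842 above and 1384 below, so 62.2% lay below. Of all genes with 1 probe set each, 4.62% had an interaction below 0 at an unadjusted p under 0.05 and 5.23% above. Without a test, 44.3% lay below 0 and 55.7% above. These shares, given beside the lists further down, include dim genes. Subtracting the median of each array gave 1272 above and 2581 below, so that 67.0% rather than 50.8% lay below 0. A trended and robust variance called 4 probe sets, array weights called 5, a filter at a mean intensity of 32 called 3 and a linear model without moderation called 0.

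Single interactions below are therefore given with their unadjusted p and read as nominal. The words rose and fell are kept for a DOX response within 1 genotype with an adjusted p under 0.05. A response is called blunted when both genotypes moved the same way and the hearts labelled Knockout moved less, enlarged when they moved more, and opposite when the signs differed. As a background for statements on overlap, the arrays of WT DOX and WT no treatment did not overlap in 24.4% of all probe sets, those of Knockout DOX and Knockout no treatment in 20.7%, the untreated genotypes in 19.4% and the treated genotypes in 20.4%.

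The DOX response was called in 1379 probe sets of WT hearts (3.06%; 749 rose, 1.66%, and 630 fell, 1.4%) and in 990 of hearts labelled Knockout (2.2%; 329 rose, 0.731%, and 661 fell, 1.47%). These counts depended on single arrays: leaving out 1 array gave from 41 (without WT no treatment replicate 3) to 2285 (without WT DOX replicate 3) for WT, and from 116 (without Knockout DOX replicate 1) to 1090 for hearts labelled Knockout. Across all probe sets the responses of the genotypes, which share no array, correlated with Pearson's r of 0.62 and had the same sign in 59.2%. Probe sets are not independent of each other, so this is a description.

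Of 2053 probe sets called in either genotype, 1085 were blunted, 777 enlarged and 191 opposite. Among those 2053 the interaction had an unadjusted p under 0.05 in 925, of which 425 were blunted, 309 enlarged and 191 opposite. A response called in 1 genotype tends to look larger there, so the average response over both genotypes, which does not depend on their difference, was also used for the choice. That average was called in 4121 probe sets (9.15%), above 0 in 2053 (4.56%) and below 0 in 2068 (4.59%), and 99.3% of them had the same sign in both genotypes.

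Average responses above 0 were smaller in hearts labelled Knockout more often than those below 0. Of the 2053 with a called average above 0, 1328 (64.7%) had the smaller response in hearts labelled Knockout, with a median response of 0.36 in WT and 0.28 in hearts labelled Knockout. Of the 2068 with a called average below 0, 939 (45.4%) had the smaller response there, with a median of -0.28 in WT and -0.32 in hearts labelled Knockout. The share was higher for averages above 0 under each alternative run for it, at 58.1% against 49.1% after quantile normalization and 68.7% against 41.9% after subtraction of array medians. Leaving out 1 array moved it from 54.8% to 77.1% for averages above 0 and from 34.0% to 53.3% for those below. No test was made of these shares.

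**Figure D1:**
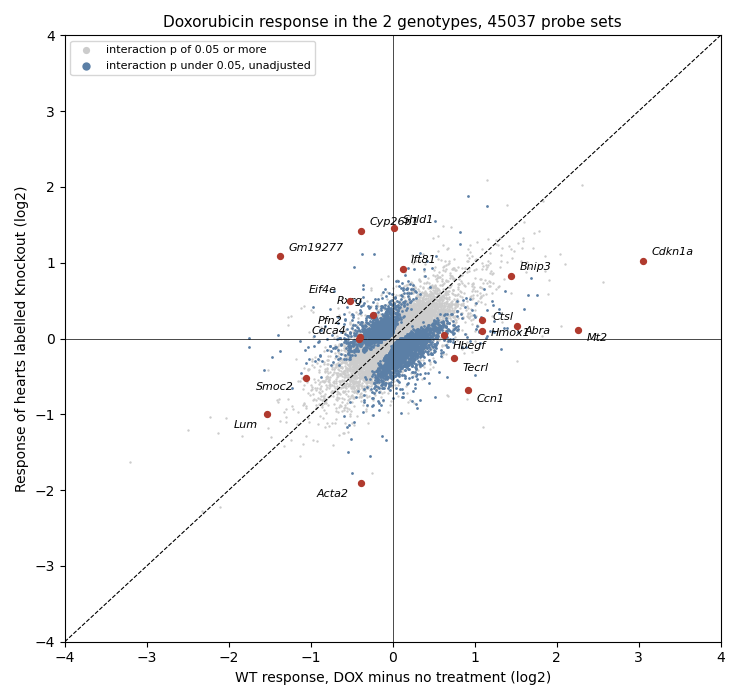
DOX response of hearts labelled Knockout (y axis, log2) against that of WT hearts (x axis, log2) for the probe sets, 4 of which lie outside the axes; blue marks an unadjusted interaction p under 0.05 and red the named genes. The dashed line is an equal response, and genes below it to the right, such as Ccn1, Hbegf and Ctsl, responded upward mainly in WT, while Gm19277 and Cyp26b1 stand above it.

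Opposite calls were rare. In 316 probe sets both responses were called, 141 blunted, 171 enlarged and 4 opposite. The 4 were Ccn1, which rose in WT and fell in hearts labelled Knockout, and Atg7, Rxrg and Gm19277, which fell in WT and rose in hearts labelled Knockout. With both responses at an unadjusted p under 0.05 instead, 148 probe sets had opposite signs, 60 up in WT and down in hearts labelled Knockout and 88 the other way.

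Ccn1, also known as Cyr61, had the smallest p of all genes with a lower interaction. In WT its leading probe set read 222, 168 and 199.5 without treatment and 436, 448 and 323 after DOX. In hearts labelled Knockout it read 242, 193 and 227 without treatment and 114, 129.6 and 134 after DOX. All WT DOX arrays were above all other arrays and all Knockout DOX arrays were below all others, while the untreated groups overlapped. The response was 0.92 in WT (adjusted p = 0.0145) and -0.67 in hearts labelled Knockout (adjusted p = 0.0327), an interaction of -1.59 ± 0.18 (SE; unadjusted p = 6.41e-06). The other probe sets of Ccn1 gave interactions of -1.49, -1.21 and -1.09, with responses of 1.00, 1.36 and 1.18 in WT, all of which rose, and of -0.49, 0.14 and 0.10 in hearts labelled Knockout, none of which passed. All 4 therefore rose in WT, whereas the fall in hearts labelled Knockout passed on 1 of 4. Without any 1 array the interaction of that leading probe set stayed between -1.73 and -1.50.

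Other genes of the CCN and YAP-TEAD list moved in the same direction with larger spread. Of its 22 genes 21 were matched, 16 lay below 0 and 5 above, and 4 were lower at an unadjusted p under 0.05 (19.0%, against 4.62% of all genes with 1 probe set each) and 0 higher (against 5.23%). The median interaction was -0.20, against 0.01 over all genes, of which 44.3% lay below 0. Ccn2 (connective tissue growth factor) read 1140, 1988 and 1057 in WT no treatment and 5859, 4910 and 2725 in WT DOX, and 1251, 1170 and 2067 in Knockout no treatment and 1832, 2444 and 2289 in Knockout DOX. All WT DOX arrays of Ccn2 were above all Knockout DOX arrays, and it rose by 1.65 in WT with a response of 0.58 in hearts labelled Knockout (interaction -1.08 ± 0.47, unadjusted p = 0.0455). Nt5e, an enzyme that makes adenosine, rose by 1.12 in WT and by 0.65 in hearts labelled Knockout. The YAP partner gene Amotl1 had responses of 0.36 and 0.02. Without Knockout no treatment replicate 3, 2 genes of the list were lower rather than 4 and its median was -0.10, and after quantile normalization 1 was lower.

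Knockout no treatment replicate 3 stood apart from its group. Its mean correlation with the other arrays of the group was 0.990, the lowest of the 12, and it had high readings of stress genes that its group mates lacked. Cdkn1a (p21) read 2794 there and 419 and 345 in the other replicates, and Mt2 read 3513 there and 849 and 411. WT DOX replicate 2 had the next largest distance from its group, with a root mean square of 0.119 on the log2 scale, against 0.1445 for the first and 0.0737 to 0.116 for the rest.

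Several genes rose in WT and hardly moved in hearts labelled Knockout. Hbegf, a growth factor of the EGF family, read 138, 128 and 131 in WT no treatment and 219, 238 and 209.9 in WT DOX. It read 156, 138 and 146 in Knockout no treatment and 152, 164 and 141 in Knockout DOX. The WT DOX arrays lay above all other 9 arrays, and the response was 0.63 in WT (adjusted p = 0.0034) and 0.05 in hearts labelled Knockout (interaction -0.58 ± 0.08, unadjusted p = 4.44e-05). Its brighter probe set gave 1.01 and 0.13 (interaction -0.89).

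Tecrl, a reductase-like protein of the sarcoplasmic reticulum linked to inherited arrhythmia, read 1031, 973 and 1015 and then 1511, 2049 and 1614 in WT. With the Knockout label the readings were 972, 1015 and 1258 without treatment and 908, 991 and 793 after DOX. WT DOX was again above every other array, with a response of 0.75 (adjusted p = 0.0223) against -0.26 in hearts labelled Knockout (interaction -1.004 ± 0.18, unadjusted p = 2.50e-04). Abra, an actin-binding activator of serum response factor, went from 181, 218 and 256 to 760.1, 772 and 529 in WT and from 337, 275 and 596 to 474, 465 and 370.0 in hearts labelled Knockout. It rose by 1.51 in WT (adjusted p = 0.0211) and had a response of 0.17 in hearts labelled Knockout (interaction -1.34 ± 0.35, unadjusted p = 0.00367; -1.04 without Knockout no treatment replicate 3).

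Oga, the enzyme that removes O-GlcNAc from proteins, rose by 0.57 in WT (adjusted p = 0.00597) and had a response of 0.08 in hearts labelled Knockout. Its 6 probe sets all had an interaction below 0, from -0.49 to -0.20. Hmox1, the haem-degrading enzyme of the antioxidant response, read 68.5, 65.1 and 67.8 in WT no treatment and 152, 276 and 134 in WT DOX, and 69.5, 75.7 and 95.0 in Knockout no treatment and 98.7, 95.3 and 71.2 in Knockout DOX. Its WT response of 1.09 passed the test (adjusted p = 0.0269), and the response of 0.10 in hearts labelled Knockout did not (interaction -0.99 ± 0.28, unadjusted p = 0.00625). Cat (catalase) rose by 0.69 in WT against 0.20, and Xirp1, an actin-binding protein of the intercalated disc, by 0.54 against 0.13.

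**Figure D2:**
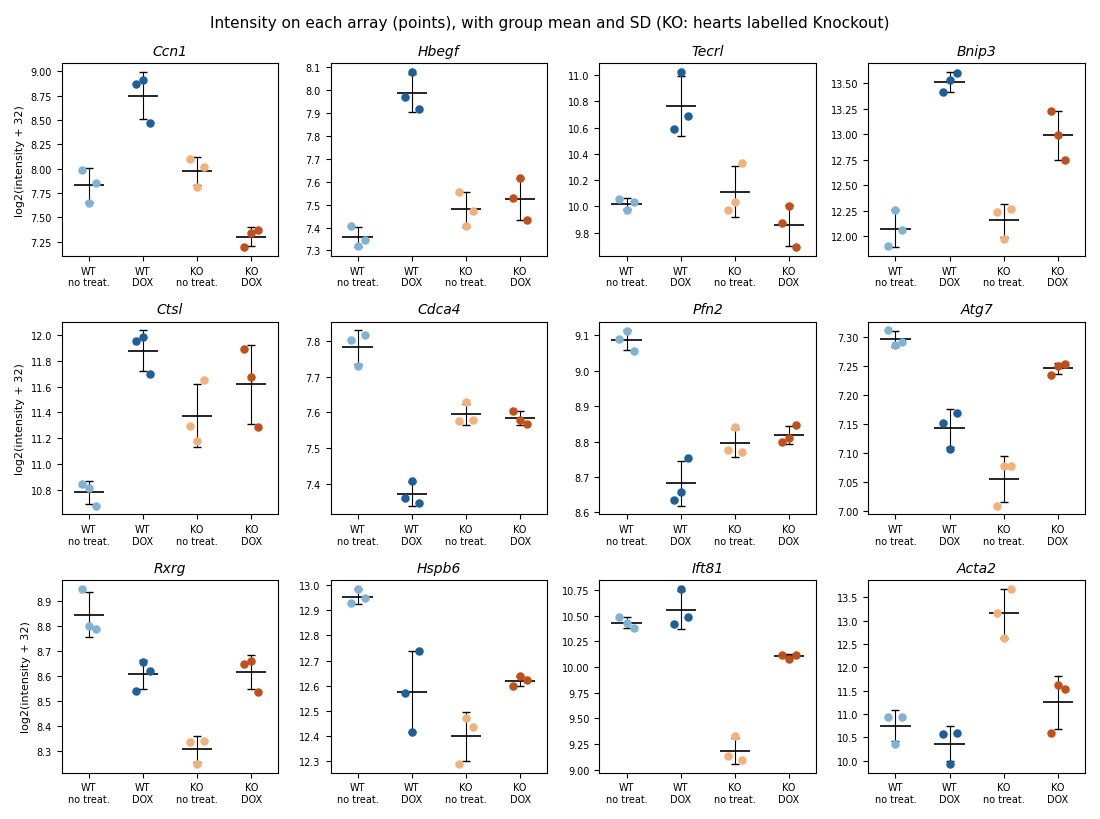
Intensity as log2(intensity + 32) on each array (points) for 12 genes in the 4 groups, with the group mean (line) and SD (bar); KO stands for the Knockout label, and each panel has its own y axis, which does not start at 0. Hbegf and Tecrl were high in WT DOX alone, Cdca4 and Pfn2 were high in untreated WT alone, and Ift81 and Acta2 were set apart in Knockout no treatment.

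Of 16 matched FoxO and muscle atrophy genes 3 rose in WT and 3 in hearts labelled Knockout. Of 28 matched autophagy and lysosome genes 3 rose and 1 fell in WT, and 1 rose in hearts labelled Knockout. Over all probe sets 1.66% rose and 1.4% fell in WT, and 0.731% rose in hearts labelled Knockout. With 1 probe set per gene, as in the lists, 722 of 18193 genes were called in WT and 589 in hearts labelled Knockout, in either direction. Bnip3, a mitophagy receptor and target of FoxO factors, read 3788, 4875 and 4225 in WT no treatment and 10860, 11800 and 12380 in WT DOX. The readings with the Knockout label were 4785, 3982 and 4896 and 9530, 8117 and 6837. All WT DOX arrays exceeded all Knockout DOX arrays, and Bnip3 rose by 1.44 in WT and 0.83 in hearts labelled Knockout, both passing the test (interaction -0.61 ± 0.19, unadjusted p = 0.00866). Ctsl, a lysosomal protease, read 1812, 1773 and 1607 and 3940, 4008 and 3285 in WT and 2480, 2285 and 3180 and 3772, 3237 and 2466 in hearts labelled Knockout. It rose by 1.10 in WT and had a response of 0.24 in hearts labelled Knockout, which without treatment already lay 0.59 above WT (interaction -0.85 ± 0.23, unadjusted p = 0.00409). A dim probe set of Ctsl, with a mean intensity of 42.1, had an interaction of 0.33.

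The autophagosome genes Gabarapl1 and Map1lc3b rose by 1.01 and 0.66 in WT, against responses of 0.47 and 0.23 in hearts labelled Knockout. Both had more than 1 probe set above an intensity of 500, and all of those had a lower interaction at an unadjusted p under 0.05. Of the 28 matched autophagy and lysosome genes, 5 were lower (17.9%, against 4.62% of all genes) and 2 higher (7.14%, against 5.23%). The list had 18 genes below 0 (64.3%, against 44.3% of all genes) and a median of -0.10. The other lower members were the autophagy kinase Ulk2 (-0.17), Becn1 (-0.21) and the cargo receptor Nbr1 (-0.26), and the higher ones Atg7 (0.34) and the lysosomal regulator Tfeb (0.26). Without Knockout no treatment replicate 3, 2 were lower and 1 higher, and after quantile normalization 3 were lower. Of the 16 matched FoxO and muscle atrophy genes 2 were lower, Bnip3 and Gabarapl1, and 0 higher, and the median of -0.02 was 0.05 after quantile normalization. In that list Trim63 (MuRF1), a muscle ubiquitin ligase, had responses of 0.47 and 0.14 without passing in either genotype, whereas Trim54 (MuRF3) rose in both, by 0.62 and 0.96.

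Other genes fell in WT and moved less, or the other way, in hearts labelled Knockout. Cdca4, a regulator of E2F-dependent transcription, had the smallest p of the whole table. It read 191, 180.2 and 193 in WT no treatment and 132, 138 and 131 in WT DOX. In Knockout no treatment it read 159, 166 and 159 and in Knockout DOX 163, 159 and 158. The groups labelled Knockout overlapped and lay between the WT groups, and the response was -0.41 in WT (adjusted p = 0.00337) and -0.01 in hearts labelled Knockout (interaction 0.40 ± 0.04, unadjusted p = 4.69e-06). This rests on 1 of 3 probe sets of Cdca4, as the dimmer 2 gave 0.09 and -0.18.

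Pfn2 (profilin 2), which binds actin monomers, showed the same order on 3 probe sets. On the leading one the WT arrays read 513, 521 and 500.3 without treatment and 366, 372 and 399.5 after DOX, and those labelled Knockout 407, 427 and 405 and 414, 417 and 428. Every untreated WT array was above every other array. The WT response was -0.40 (adjusted p = 0.0034) and that of hearts labelled Knockout 0.02 (interaction 0.43 ± 0.05, unadjusted p = 9.27e-06), and the other probe sets gave interactions of 0.39 and 0.40.

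Kcng2, a modifier subunit of potassium channels, fell by 0.31 in WT and had a response of 0.20 in hearts labelled Knockout (interaction 0.51 ± 0.10, unadjusted p = 4.06e-04). Jph2 (junctophilin 2), which holds the T-tubule next to the calcium store, read 1314, 1315 and 1154 in WT no treatment and 838, 719 and 997 in WT DOX, against 1213, 1101 and 1134 and 1133, 1069 and 1365 with the Knockout label. The 3 lowest values of Jph2 were the WT DOX arrays, a response of -0.56 (adjusted p = 0.0392) against 0.04 (interaction 0.60 ± 0.17, unadjusted p = 0.00519). Nebl (nebulette), a Z-disc protein, fell by 0.48 in WT with a response of -0.03 in hearts labelled Knockout. Fhl2, a LIM protein of the sarcomere, fell in both genotypes, by 0.88 in WT and 0.50 in hearts labelled Knockout.

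Another set moved in opposite directions or closed a gap that was present without treatment. Atg7, the E1-like enzyme of autophagosome formation, read 127, 124 and 125 in WT no treatment, 110.2, 106 and 112 in WT DOX, 96.8, 103 and 103 in Knockout no treatment and 119, 120.1 and 121 in Knockout DOX. No 2 of the 4 groups overlapped, although the differences were small, at -0.15 in WT (adjusted p = 0.0253) and 0.19 in hearts labelled Knockout (adjusted p = 0.0138), an interaction of 0.34 ± 0.04 (unadjusted p = 5.58e-06). The other Atg7 probe sets gave 0.14, -0.06 and 0.00, so the result rests on 1 of 4.

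Rxrg, a retinoid X receptor, read 462, 414 and 411 in WT no treatment and 341, 372 and 362 in WT DOX. Without treatment the hearts labelled Knockout read 291, 272 and 293, and after DOX 369, 373 and 339.9. The untreated groups lay 0.54 apart, with WT higher, and after DOX the genotypes overlapped (difference 0.01). The responses were -0.24 and 0.31, both called (interaction 0.55 ± 0.08, unadjusted p = 3.55e-05). Gm19277, a predicted gene, read 199, 147 and 102 in WT no treatment and 47.1, 28.6 and 34.9 in WT DOX, and 47.0, 26.5 and 19.3 and 108, 87.8 and 103 with the Knockout label. It fell by 1.37 in WT and rose by 1.09 in hearts labelled Knockout, the largest interaction of the 6 leading probe sets, at 2.46 ± 0.29 (unadjusted p = 8.91e-06).

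Hspb6 (Hsp20), a small heat shock protein of muscle, read 7762, 8077 and 7870 in WT no treatment and 6060, 5435 and 6805 in WT DOX. Its arrays labelled Knockout read 4972, 5651 and 5511 and 6170, 6338 and 6272. It fell by 0.38 in WT (adjusted p = 0.0305), and its response of 0.22 in hearts labelled Knockout did not pass (interaction 0.60 ± 0.10, unadjusted p = 2.00e-04). The untreated groups did not overlap and the treated ones did. Eif4e, the cap-binding protein of translation, fell by 0.52 in WT with a response of 0.50 in hearts labelled Knockout (interaction 1.01 ± 0.17), and its 2 brighter probe sets gave 0.53 and 0.43. Hspa12a, a distant Hsp70 relative, fell by 0.56 in WT against a response of 0.42, and Asb15, a muscle subunit of cullin ligases, fell by 0.31 against a response of 0.21.

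Opposite signs in the other direction, with 1 of the 2 responses passing the test in each, were found for Trnt1, Gars and Lztfl1. Trnt1, which adds CCA ends to tRNA, rose by 0.52 in WT with a response of -0.17 in hearts labelled Knockout (interaction -0.68 ± 0.10, unadjusted p = 5.35e-05). Gars, the glycyl-tRNA synthetase, had a response of 0.15 in WT and fell by 0.21 in hearts labelled Knockout (interaction -0.36 ± 0.06, unadjusted p = 8.68e-05). Lztfl1, a regulator of ciliary traffic, rose by 0.23 in WT against a response of -0.21 (interaction -0.44 ± 0.07), and its brightest probe set gave -0.60.

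A further set had a called response in hearts labelled Knockout and not in WT. Ift81, a subunit of the ciliary transport complex, read 1407, 1350 and 1299 in WT no treatment and 1334, 1707 and 1406 in WT DOX, which overlapped. It read 527, 610.5 and 514 in Knockout no treatment and 1076, 1053 and 1078 in Knockout DOX, still below every WT array. The response was 0.92 (adjusted p = 0.00497) against 0.12 in WT (interaction 0.80 ± 0.12, unadjusted p = 8.21e-05), and a second probe set of Ift81 gave 0.62. Shld1, a DNA repair protein of the shieldin complex, read 711, 822 and 678 and 760.0, 845 and 642 in WT and 399, 256 and 195 and 824, 822 and 761 with the Knockout label. It rose by 1.46 in hearts labelled Knockout from an untreated level 1.33 below WT, and the second probe set of Shld1 gave almost the same interaction (1.42 against 1.44).

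Cyp26b1, which degrades retinoic acid, read 36.3, 38.6 and 40.8 in Knockout no treatment, below each of the other 9 arrays, which spanned 102 to 306. It rose by 1.42 in hearts labelled Knockout with a response of -0.39 in WT (interaction 1.81 ± 0.44, unadjusted p = 0.00214). Cep128, a centriole protein, showed the reverse arrangement: it fell by 0.82 in WT, from 514, 462 and 438 to 209, 285 and 269, and stayed between 106 and 138 on all 6 arrays labelled Knockout. Falls called in hearts labelled Knockout and not in WT included Ywhaq (14-3-3 theta), by 0.46 against -0.08 in WT. Polr2i, an RNA polymerase II subunit, fell by 0.29 against 0.03. A probe set of the collagen receptor Ddr1 fell by 0.32 against 0.09. Dimmer probe sets of Ddr1, with means of 126 and 34.1, gave interactions of 0.004 and -0.002 instead. All 8 probe sets of Ywhaq had an interaction below 0, from -0.37 to -0.18.

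**Figure D3:**
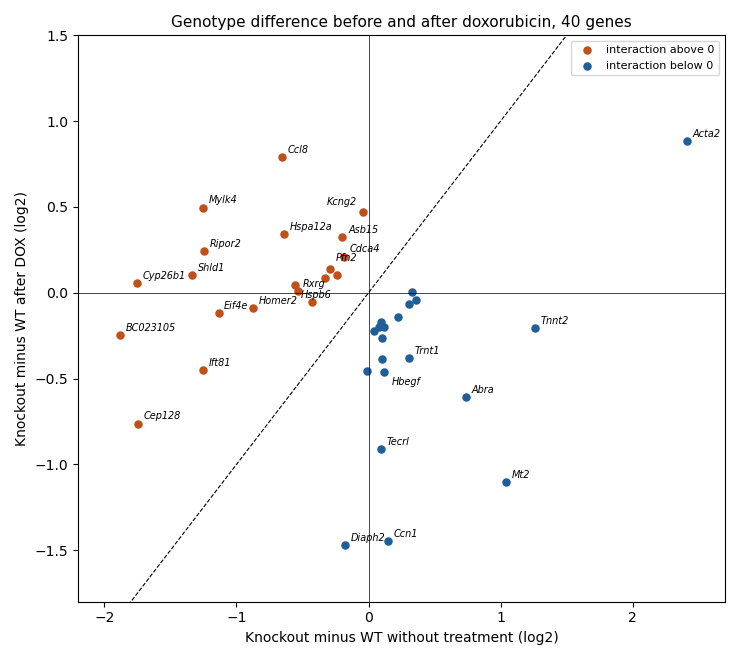
Difference between hearts labelled Knockout and WT after DOX (y axis, log2) against the same difference without treatment (x axis, log2) for the 40 genes ranked by p or size of the interaction; orange marks an interaction above 0, blue below 0, the dashed line is an equal difference, and names are printed for 26. All 20 orange genes lie left of 0, lower in untreated hearts labelled Knockout, and 18 of 20 blue genes lie right of 0.

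The arrangement of these 40 genes can be read from the genotype differences, which use the same arrays as the interaction and are no separate evidence. All 20 genes with a higher interaction were lower in hearts labelled Knockout than in WT without treatment, and 14 of them were higher after DOX. Of the 20 with a lower interaction, 18 were higher without treatment and 18 lower after DOX. Hearts labelled Knockout differed from WT at an adjusted p under 0.05 in 817 probe sets without treatment (1.81%) and in 424 after DOX (0.941%). Over the 3914 probe sets with an unadjusted interaction p under 0.05 the larger genotype difference was the untreated one in 1841 (47.0%) and the treated one in 2073.

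Proteasome subunits lay almost all on the same side. All 30 genes of the list were matched, and 27 lay below 0 and 3 above. At an unadjusted p under 0.05, 11 were lower (36.7%, against 4.62% of all genes) and 0 higher. That share of all genes includes dim ones. Probe sets with a mean of at least 100 leaned below 0 as a whole, with 1198 below and 627 above at that p. The median response was 0.13 in WT and -0.08 in hearts labelled Knockout, an interaction with a median of -0.12. Averaged over the list, relative to untreated WT, the level was 0.15 ± 0.01 (SD, n = 3) in Knockout no treatment, 0.13 ± 0.03 in WT DOX and 0.11 ± 0.06 in Knockout DOX. The WT DOX arrays read 0.10 to 0.16 and the untreated arrays labelled Knockout 0.14 to 0.15, so these groups overlapped.

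Psmc4, an ATPase subunit of the 19S cap, read 502, 452 and 538 in WT no treatment and 517, 679 and 658 in WT DOX, and 574, 739.9 and 915 in Knockout no treatment and 517, 542 and 431 in Knockout DOX. The lowest untreated array labelled Knockout was above the highest untreated WT array, and after DOX the genotypes overlapped. Its interaction was -0.83 ± 0.23 (unadjusted p = 0.00477), and that of Psmd6, a 19S lid subunit, -0.41 ± 0.10 (unadjusted p = 0.00275), with responses of 0.29 and -0.12. Quantile normalization left 23 genes below 0 and 5 lower, with a median of -0.05, and subtraction of array medians 28 and 11. Without Knockout no treatment replicate 3, 29 lay below 0 and 8 were lower.

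Chaperones and cochaperones leaned the same way. Of 26 matched genes 21 lay below 0 (80.8%, against 44.3% of all genes), with a median of -0.26. At an unadjusted p under 0.05, 5 were lower (19.2%, against 4.62%) and 1, Hspb6, was higher (3.85%, against 5.23%). Hspb1 (Hsp27) read 6836, 5945 and 6567 in WT no treatment and 8078, 8614 and 7975 in WT DOX, and 8184, 8002 and 10730 and 6746, 7959 and 8029 with the Knockout label. WT DOX was above all untreated WT arrays, and untreated hearts labelled Knockout overlapped with WT DOX. The responses were 0.35 and -0.23 (interaction -0.58 ± 0.16, unadjusted p = 0.00437), and its second probe set gave -0.80. Ahsa1, an activator of the Hsp90 ATPase, fell by 0.70 in hearts labelled Knockout against -0.17 in WT (interaction -0.54 ± 0.16). The Hsp40 genes Dnaja1 and Dnajb4 gave -0.80 and -0.33, and Hsp90aa1 -0.90 ± 0.38.

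The untreated array that stood apart read high for these genes. The mean level of the chaperone list was 0.47 in Knockout no treatment replicate 3, against 0.01 and 0.05 in the other replicates. Without it the median was -0.18, with 20 of 26 genes below 0 and 5 lower, and the interactions were -0.45 for Hspb1, -0.38 for Ahsa1, -0.48 for Dnaja1 and -0.50 for Hsp90aa1. Hearts labelled Knockout after DOX averaged -0.09 ± 0.07 (SD, n = 3), and WT hearts 0.01 ± 0.06.

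The 8 subunits of the TRiC chaperonin, which folds actin and tubulin, were added after their values had been seen and get no test. Of these, 7 lay below 0. As the list was added with these values known, that count is no support for the lists above. Cct2 rose by 0.25 in WT with a response of -0.02 (interaction -0.27 ± 0.04), while Cct3 and Cct6a fell by 0.50 and 0.35 in hearts labelled Knockout with responses of 0.02 and -0.04 in WT. The Cct2 arrays read 1510, 1484 and 1468 in WT no treatment, 1728, 1835 and 1754 in WT DOX, 1549, 1494 and 1558 in Knockout no treatment and 1523, 1522 and 1495 in Knockout DOX, so that WT DOX alone was set apart. Cct7 went the other way, at 0.17.

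**Figure D4:**
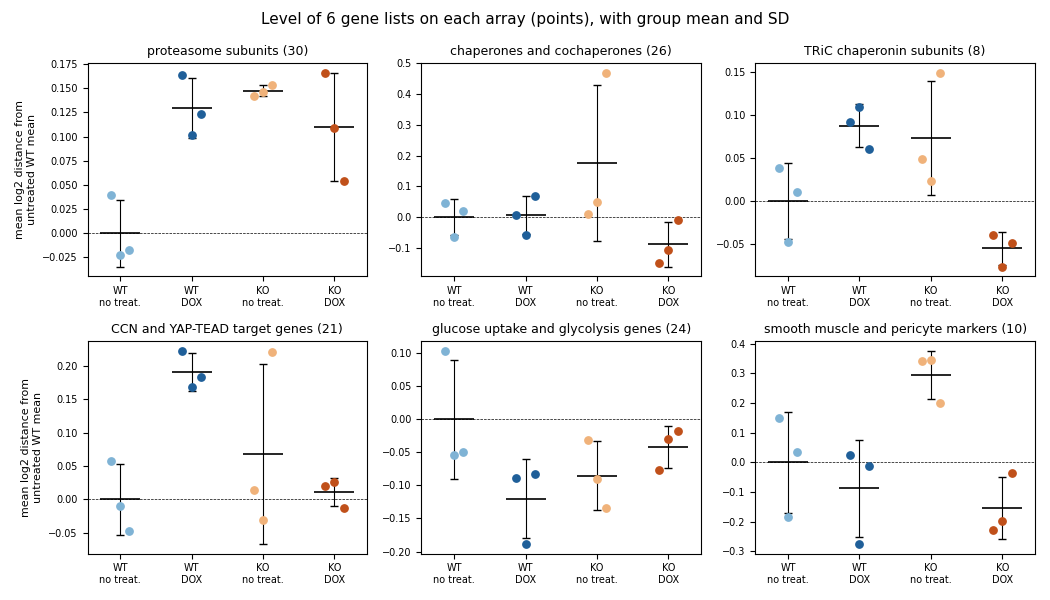
Mean log2 distance of the genes of 6 lists from their untreated WT mean (y axis) on each array (points), with the group mean (line) and SD (bar); the number of genes is in brackets, KO stands for the Knockout label, and each panel has its own y axis. Proteasome subunits lay above untreated WT in every other group, and the smooth muscle markers were highest in Knockout no treatment.

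Energy metabolism genes tended the other way. Of 24 matched genes of glucose uptake and glycolysis 19 lay above 0 (55.7% of all genes did), 5 were higher (20.8%, against 5.23%) and 1 lower, with a median of 0.13. Hk2 (hexokinase 2) read 2274, 1821 and 2079 in WT no treatment and 1255, 946 and 1320 in WT DOX, with 1937, 1644 and 1144 and 1446, 1485 and 1683 under the Knockout label. The WT DOX arrays and Knockout no treatment replicate 3 were the 4 lowest, and the responses were -0.80 and 0.00 (interaction 0.80 ± 0.26, unadjusted p = 0.0125; 0.59 without that array). The muscle phosphofructokinase Pfkm gave 0.46 and Pfkfb2, which makes its activator, 0.73. Pkm and the pyruvate dehydrogenase subunit Pdha1 gave 0.21 and 0.20. The platelet isoform of phosphofructokinase, Pfkp, gave -0.55. Without WT DOX replicate 2 the median was 0.07, with 2 genes higher, and without Knockout no treatment replicate 3 it was 0.13.

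Of 25 matched fatty acid and PPAR-alpha genes 17 lay above 0 (68%, against 55.7% of all genes). Of them 3 were higher (12%, against 5.23% of all genes) and 0 lower. The list had a median of 0.17 and median responses of 0.18 in WT and 0.49 in hearts labelled Knockout. Acadvl, the first enzyme of long-chain fatty acid oxidation, rose by 0.60 in hearts labelled Knockout against 0.14 in WT (interaction 0.46 ± 0.12, unadjusted p = 0.00338), from an untreated level 0.45 below WT. Hadhb, of the trifunctional protein, rose by 0.43 against 0.13. Ppargc1a, a coactivator of mitochondrial genes, rose by 0.49 against 0.15. Without Knockout no treatment replicate 3 the median was 0.10 and 1 gene was higher. The 38 matched oxidative phosphorylation genes had a median of 0.05, with 1 higher (Ndufv1) and 1 lower (Ndufa2).

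The cholesterol list, whose genes make sterols under SREBP2, had 4 of 20 matched genes lower (20%, against 4.62% of all genes) and 0 higher. In that list 14 genes lay below 0 (70%, against 44.3% of all genes). Cyp51 gave -0.46 ± 0.11 (unadjusted p = 0.00146), Idi1 -0.36, Msmo1 -0.34 and Dhcr7 -0.25. Idi1 and Dhcr7 fell in hearts labelled Knockout, by 0.50 and 0.33, and the WT responses of the 4 ran from -0.13 to 0.15. The mean intensities of these 4 were low, from 51.8 to 78.7, and without Knockout no treatment replicate 3, 5 were lower and the median was -0.13 instead of -0.09.

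Contractile and ion handling lists were mixed. Of all genes 5.23% were higher and 4.62% lower, and 44.3% lay below 0. Sarcomere and Z-disc genes had 3 of 30 higher (Fhl2, Nebl and Ldb3), 1 lower (Xirp1) and a median of 0.09. Calcium handling and ion channel genes had 3 of 24 higher, which were Jph2 and the potassium channel genes Kcnj11 (0.47) and Kcnj3 (0.75), 1 lower (Tecrl) and a median of 0.07. Fetal and wall stress genes, which a loaded heart re-expresses, had 13 of 15 below 0 and 2 lower, Ccn2 and Xirp1, with a median of -0.41 that was -0.17 without Knockout no treatment replicate 3. In that list Myh7, the slow myosin heavy chain, lay above 0, with responses of 1.15 in WT and 2.08 in hearts labelled Knockout that passed in neither.

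The DNA damage and stress lists differed in how many members had an interaction at an unadjusted p under 0.05. Of all genes 4.62% were lower and 5.23% higher. Of 27 matched p53 targets 2 were lower (7.41%) and 0 higher, with a median of -0.07 (0.00 without Knockout no treatment replicate 3). Cdkn1a read 211, 175 and 190.3 in WT no treatment and 2339, 2594 and 999.5 in WT DOX, and 419, 345 and 2794 in Knockout no treatment and 2129, 1666 and 1071 in Knockout DOX. It rose by 3.05 in WT (adjusted p = 0.0455) with a response of 1.02 in hearts labelled Knockout, and the interaction of -2.03 ± 0.96 (unadjusted p = 0.0621) was -1.10 without that array. The lower members were Btg2, an antiproliferative gene with responses of 0.95 and -0.03 (interaction -0.98 ± 0.40; -0.68 without that array), and Phlda3, an inhibitor of AKT (-0.53).

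Of 28 matched ATF4 and amino acid stress genes 3 were lower (10.7%, against 4.62% of all genes) and 2 higher (7.14%, against 5.23%), with a median of -0.10. The lower ones were Atf3 (-0.80, and -0.53 without Knockout no treatment replicate 3), Ppp1r15a (-0.48) and Mthfd2 (-0.43). The higher ones were Mthfd1l (0.29) and Fgf21 (0.09). Of 25 immediate early genes 1 was lower (4%), Ier5 at -0.54, and 3 were higher (12%), Nr4a3, Egr3 and Fosl1 at 0.14 to 0.28. In that list 20 genes lay below 0 (80%, against 44.3% of all genes). Among the higher ones Fosl1 and Nr4a3 were dim, with mean intensities of 15.8 and 48. A dim probe set of Egr3 went the other way without Knockout no treatment replicate 2, at -0.50. The median of the 25 genes was -0.25, and -0.12 without Knockout no treatment replicate 3. Metallothionein and zinc transport genes had 2 of 10 lower (20%). These were the metal-binding Mt2 (-2.15 ± 0.95, and -1.31 without that array) and the zinc importer Slc39a1 (-0.34). Antioxidant and NRF2 target genes were split, with Hmox1 and Cat lower (8% of 25 matched) and with Gsta3 (0.57) and Sod1 (0.27) higher (8%). Gsta3, a glutathione transferase, rose by 0.76 in hearts labelled Knockout against 0.19 in WT, and its other probe set gave 0.81.

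For 5 further lists the counts were near the background. Glucocorticoid targets had 1 of 19 lower (Mt2), circadian clock genes 1 of 18 higher (Nr1d2, 0.41), and cell cycle genes 1 of 27 lower (Pcna, -0.33). Apoptosis regulators had 1 of 24 higher (Bmf, 0.19) and 1 lower (Casp8, -0.23), and STAT3, growth factor and insulin signaling genes had 2 of 27 higher (Akt1, 0.52, and Spry2, 0.20) and 0 lower. The median of the glucocorticoid list was -0.27 and became 0.01 without Knockout no treatment replicate 3. The circadian median of 0.09 became -0.01, and 5 cell cycle genes rather than 1 were then lower.

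**Figure D5:**
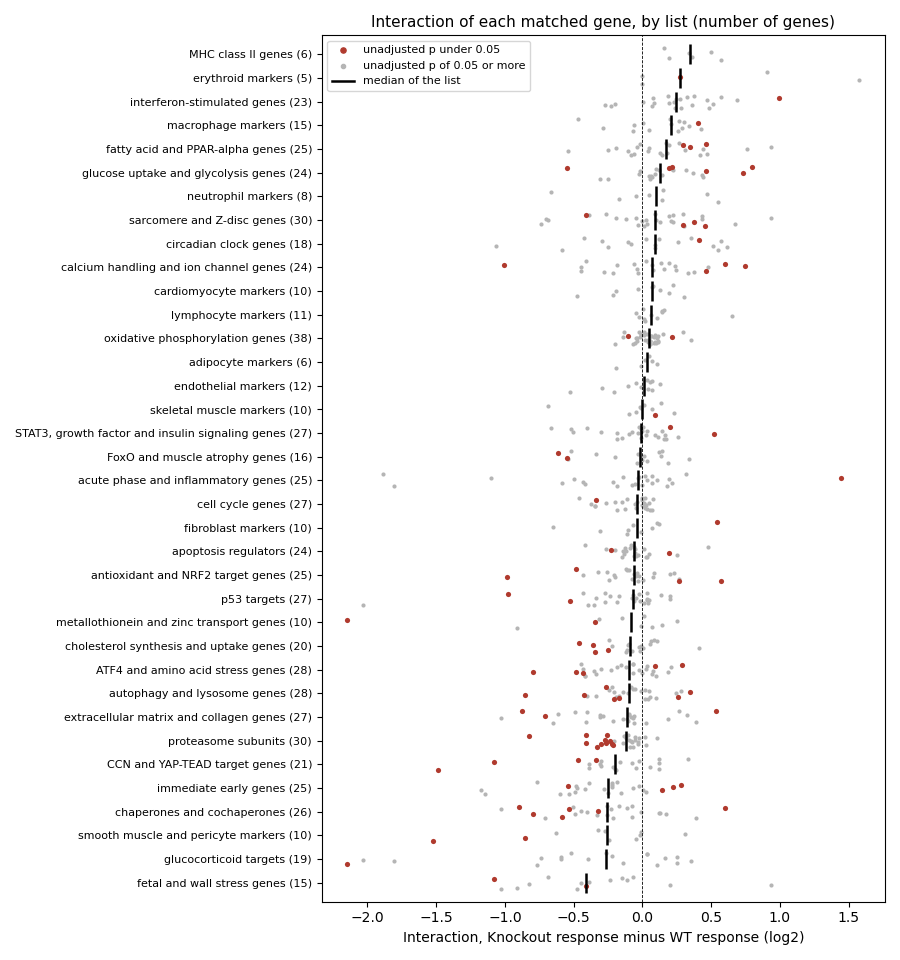
Interaction (x axis, log2) of each matched gene in the 36 lists, ordered by the list median (black bar), with the number of genes in brackets; red points have an unadjusted p under 0.05 and grey points do not, and height within a row has no meaning. Proteasome subunits lie close together below 0, and wide lists such as the glucocorticoid targets have single genes at their ends.

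The interferon, MHC class II and macrophage lists lay mostly above 0, with 0 or 1 member each at an unadjusted p under 0.05. Of all genes 55.7% lay above 0. The level of an interferon-stimulated gene list averaged -0.46 ± 0.16 (SD, n = 3) in WT DOX and -0.35 ± 0.11 in Knockout DOX, and -0.16 ± 0.24 in Knockout no treatment, relative to untreated WT. Of its 23 matched genes 20 lay above 0 and 1, the interferon-induced protease Usp18, was higher. Its median of 0.24 was 0.09 without Knockout no treatment replicate 3. All 6 matched MHC class II genes lay above 0, 0 of them at an unadjusted p under 0.05, and their median of 0.35 was 0.11 without that array and 0.10 without WT no treatment replicate 2. Of 15 macrophage markers 11 lay above 0 and 1 was higher, Csf1r, the receptor of a macrophage growth factor, which fell by 0.75 in WT with a response of -0.35 in hearts labelled Knockout. The macrophage median of 0.21 was -0.08 without Knockout no treatment replicate 2 and 0.42 without replicate 3 of that group. Summed macrophage markers, 1 of them under a mean of 32, were 5999 to 7619 in WT no treatment, 5582 to 11400 in Knockout no treatment, 3703 to 5036 in WT DOX and 5367 to 6572 in Knockout DOX, so the treated genotypes did not overlap, and their part in these results was not tested. Acute phase and inflammatory genes had 1 of 25 higher, the chemokine Ccl8 (1.45 ± 0.57), with 10 members above 0, 15 below and a median of -0.03. That median was -0.14 and 0.04 without Knockout no treatment replicates 2 and 3. In whole hearts fewer cells of a type cannot be told apart from less RNA per cell.

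Among 27 matched extracellular matrix genes 6 fell in WT and 7 in hearts labelled Knockout, against 1.4% and 1.47% of all probe sets. With 1 probe set per gene, as in the list, 722 of 18193 genes were called in WT and 589 in hearts labelled Knockout, in either direction. The median responses of the matrix genes were -0.55 in WT and -0.72 in hearts labelled Knockout. The median difference of hearts labelled Knockout from WT was 0.73 without treatment and 0.61 after DOX. The interaction was lower for 2, Col4a1 and Col4a2, and higher for 1, Smoc2. Col4a2, a chain of basement membrane collagen, read 1065, 852 and 1100 in WT no treatment and 1163, 1140 and 1142 in WT DOX, and 1666, 1485 and 1893 in Knockout no treatment and 1269, 1160 and 1063 in Knockout DOX. Only the untreated arrays labelled Knockout were set apart, above all others. It fell by 0.52 in hearts labelled Knockout with a response of 0.19 in WT (interaction -0.71 ± 0.15, unadjusted p = 9.91e-04), and its partner chain Col4a1 gave -0.87 and, on its other probe set, -0.54. Smoc2, a matricellular protein, fell by 1.06 in WT against a response of -0.53, and the fibroblast proteoglycan Lum fell by 1.53 in WT and by 0.99 in hearts labelled Knockout.

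Smooth muscle and pericyte markers had 9 of 10 below 0, against 44.3% of all genes. Of these markers 2 were lower (20%, against 4.62% of all genes), Acta2 and Myh11 (-0.86). The median was -0.26, and -0.26 without Knockout no treatment replicate 3 too. Acta2 (smooth muscle actin) read 1934, 1283 and 1932 in WT no treatment and 1484, 943 and 1507 in WT DOX. Under the Knockout label it read 9168, 6289 and 13040 and then 1521, 3091 and 2928. All untreated arrays labelled Knockout were above all others, and Acta2 fell by 1.91 in hearts labelled Knockout (adjusted p = 0.0251) against -0.39 in WT (interaction -1.52 ± 0.48, unadjusted p = 0.0103). Its second probe set above an intensity of 32 gave -1.15.

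The summed level of the 10 smooth muscle markers was 16410 to 17890 in WT no treatment, 20700 to 26390 in Knockout no treatment, 18090 to 20440 in WT DOX and 17540 to 18130 in Knockout DOX, with 0 of the 10 under a mean of 32. The part of these cells in the results for Acta2, Ccn1, Ccn2 and Col4a2 was not tested. Of the other marker lists, cardiomyocyte, endothelial, neutrophil, lymphocyte and adipocyte markers had 0 members at an unadjusted p under 0.05. Fibroblast (Lum), erythroid (Ermap) and skeletal muscle (Myh1) markers had 1 each, all higher. Many markers were under a mean of 32: 7 of 11 lymphocyte, 4 of 6 adipocyte, 3 of 8 neutrophil, 5 of 10 skeletal muscle and 2 of 5 erythroid markers. Myh1 was among them, at 7.2. Summed cardiomyocyte markers ranged from 144600 to 181400 over the 12 arrays, and all 10 lay above a mean of 32.

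Genes that the study measured by other means gave the following. Besides Ccn1, Mthfd2 and Btg2, interactions at an unadjusted p under 0.05 were found for Igf1r (-0.62 and -0.46, on 2 of 5 probe sets) and for 1 of 2 probe sets of Col3a1 (-0.95 ± 0.36, while the brighter one gave -0.12). Postn, Igf1, Bcl2, Il1b, Il6, Tnf, Ptpn6, Il6st and Stat3 had none. Of these, Il6, Tnf and Il1b had mean intensities of 7.3, 34.2 and 36.0. Those lie below or close to the added value of 32, where a change could hardly be measured. Lcn2, a neutrophil and acute phase protein, read 19.1, 30.3 and 1534 in Knockout no treatment, and its interaction was -1.81 ± 1.54 (unadjusted p = 0.268). Without Knockout no treatment replicate 3 it was -0.21. Cyp2b10 had responses of 0.15 to 0.28 in WT and 0.30 to 1.03 in hearts labelled Knockout, with interactions of 0.10 to 0.75, none at an unadjusted p under 0.05.

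The ranks by size held genes with wide spread. Mylk4 (1.75 ± 0.75), a myosin light chain kinase relative, and Ripor2 (1.49 ± 0.42) had untreated arrays labelled Knockout from 377 to 2176 and from 34.7 to 141, so the arrays of that group differed widely among themselves. Diaph2, a formin (-1.29 ± 0.42), read 110.0, 121 and 339.9 in Knockout DOX against 484 to 606 in WT DOX, and its other probe set gave -0.79. A probe set of Tnnt2 (cardiac troponin T) gave -1.47 ± 0.44, but the 2 bright probe sets of Tnnt2 gave -0.17 and -0.03.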

How the data were processed

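Hearts of 4 groups with 3 biological replicates each were measured on Affymetrix arrays. The deposited values were probe set intensities on a linear scale, made by the authors with Affymetrix Expression Console, whose version and summary method were not given in the sources used here. No columns of other samples were present (0). Groups came from sample titles. Here log2(intensity + 32) was fitted for all 4 groups with limma 3.58.1 in R 4.3.3, with moderated variances and Benjamini-Hochberg adjustment over 45037 probe sets, so folds of dim genes are understated. Array precision is limited by 3 arrays a group. The interaction and the response of each genotype were contrasts of that fit. SE is the standard error of the contrast.

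Names came from the platform annotation, updated by Entrez ID through RefSeq on GRCm38.p6: 34945 probe sets named 1 gene, of which 34741 matched, 932 named several and 9160 named none, giving 18193 genes. Where a list needed 1 probe set per gene, the one with the highest mean was taken. The text names Stub1 and most genes of 3 ranks per direction at a mean of at least 100. The ranks were the 15 genes with the smallest interaction p, the 6 largest and the 6 with opposite responses. The ranked genes Ankrd24, Hbp1, Homer2, Dync1i2, Pdcd6, Tm2d2, Apc and BC023105 are not described. Also named are genes called by an alternative variance model, members of 36 gene lists and genes the study measured otherwise. These genes and lists were chosen with earlier results of these data known. The TRiC list, the unlisted probe sets quoted for a gene and the lists without single arrays were added after seeing the data. Alternatives were other added values, quantile or median scaling, another variance model, array weights, a filter at a mean of 32, gene-level values, no moderation, a replicate block and each array left out. The code was tested on simulated data.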

Additional observations from a re-analysis of the deposited data

How the results depend on the processing

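Of the interaction values of 72 genes under 24 alternatives, 1704 kept their direction and their side of the threshold, 13 passed it and 1 changed sign, that of Lcn2, at 0.28 without both Knockout no treatment replicate 3 and WT DOX replicate 2. Of the 36 list medians 11 took either sign without 1 array: the p53, FoxO, glucocorticoid, circadian, STAT3, acute phase, fibroblast, macrophage, neutrophil, endothelial and skeletal muscle lists. At an adjusted p under 0.05 the interaction was called in 4 probe sets with a trended and robust variance, 5 with array weights and 3 with the filter at a mean of 32, and in 0 to 2 without 1 array. Nominal interactions above 0 numbered 1272 after subtraction of array medians, 842 with the filter, 867 with 1 probe set per gene and 887 with probe sets averaged within genes, and 1464 to 2332 without 1 array. Those below 0 numbered 810 and 802 at the gene level and 1356 to 2612 without 1 array. The WT response was called in 2555 with array weights, 2283 with the filter, 88 without moderation and 790 without both Knockout no treatment replicate 3 and WT DOX replicate 2. It was called in 868, 114 and 41 without WT no treatment replicates 1, 2 and 3, in 266, 157 and 2285 without WT DOX replicates 1, 2 and 3, in 2101 without Knockout no treatment replicate 3 and in 828 without Knockout DOX replicate 2. The Knockout response was called in 1707 with the filter and 160 without moderation. It was called in 654 and 610 without WT no treatment replicates 2 and 3, in 582 without Knockout no treatment replicate 1 and in 116 and 302 without Knockout DOX replicates 1 and 2, with a highest value of 1090. The average response was called in 2606 and 2581 at the gene level, 2146 without moderation and 2249 to 4837 without 1 array, with 2687 and 2249 without WT no treatment replicates 2 and 3 and 2279 without Knockout DOX replicate 1. Of these, 1367, 1363 and 1140 were smaller in hearts labelled Knockout, and 1177 to 3210 without 1 array. The causes were not tested. With the replicate number as a block the interaction was called in 0 probe sets, with 1933 nominal values above 0 and 2037 below, and the WT, Knockout and average responses in 1335, 1095 and 3972. The numbers did not pair the arrays, since deviations of same-numbered arrays correlated from -0.249 to 0.150, above 0.1 in 3 of 18 pairs. Dim probe sets lie close to the added value of 32, where changes are hard to measure.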

Other observations

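A few interactions passed an adjusted p under 0.05 only in an alternative fit. The trended and robust variance called both leading probe sets of Ccn1, Gm19277 and a probe set with no gene name (-0.86), and array weights called both of Ccn1 with Cdca4, Atg7 and Pfn2. The filter at a mean of 32 called both of Ccn1 and Gm19277. Leaving out 1 array called a dim probe set of Egr3 (-0.50) and Ubfd1 (-0.74) without Knockout no treatment replicate 2, Pitpnc1 (0.46) without WT DOX replicate 1, Ccn1 without WT DOX replicate 3 and Diaph2 (-1.74) without Knockout DOX replicate 3. For Diaph2 the array left out read 340, against 110.0 and 121 in the other replicates of Knockout DOX.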
